A study of Rattus norvegicus with 6 samples.

Results

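The genes described here are Mx1, Mx2, Ifit1, Ifit2, Ifit3, Rsad2, Cmpk2 and Rtp4, 8 antiviral effector genes chosen by name and found by their symbols among the 40154 genes of the deposited gene table, together with their 23 transcripts in the transcript table. They were measured by mRNA sequencing of atrial fibroblasts isolated from Sprague-Dawley rats aged 1 to 3 days and transfected with si-NC, a non-targeting siRNA, or with si-GPD1L, an siRNA against the glycerol-3-phosphate dehydrogenase 1-like gene Gpd1l, with 3 libraries in each group and 24 h of culture after transfection. All libraries carry the same label "Atrial differentiation" for treatment, the hearts were minced and digested with trypsin, and the fibroblasts were separated from myocytes by a preplating step of 1.5 h, with no number of animals per culture given. The sources used here do not say whether the digit that ends the si-GPD1L names counts cultures, repeat libraries or different siRNAs, so a p-value measures only the spread between these libraries, which may be technical.

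Type I interferons bind a receptor on the cell surface that activates transcription factors, STAT2 and IRF9 among them. These enter the nucleus as a complex that binds a DNA element, the interferon-stimulated response element (ISRE), at the promoters of the interferon-stimulated genes. The members belong to this class, and most are hardly transcribed in resting cells. Mx1 and Mx2 encode dynamin-like GTPases that block incoming viral ribonucleoproteins. The Ifit genes encode tetratricopeptide proteins, of which IFIT1 binds the 5′ end of foreign RNA. Rsad2 encodes viperin, a radical SAM enzyme that turns CTP into a chain-terminating nucleotide, and its neighbour Cmpk2 encodes a nucleotide kinase that supplies CTP. Rtp4 encodes a zinc-finger protein that binds viral RNA.

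The library totals ran from 16892255 to 20149732 counts on genes. The target of the siRNA checks the labels: Gpd1l had 265, 314 and 321 raw counts in si-NC against 202, 229 and 303 in si-GPD1L, and its log2 fold change, -0.31 with a standard error of 0.15, was not past the threshold (adjusted p = 0.234 over all genes, edgeR's quasi-likelihood test), so directions below are those of the libraries labelled si-GPD1L. All 10 fibroblast markers on a list that ran from Col1a1 to Tcf21 were present and tested. Dcn and Lum, proteoglycan genes named after their values were seen, were lower in si-GPD1L by an adjusted p-value under 0.05 (log2 fold changes of -0.66 and -0.77). The signs on this list went both ways. Col1a1 and Col1a2 had log2 fold changes of 0.25 and 0.21 with no overlap of the groups. They did not pass (edgeR's adjusted p = 0.219 and 0.137), and 15.1% of all genes tested were higher without overlap. All 10 cardiomyocyte markers, Tnnt2 and Nppa among them, also had counts, so the cultures held myocyte RNA. Their summed normalized counts were lower in every si-GPD1L library (28993 to 32017) than in any si-NC library (32870 to 34131), but the signs on the list went both ways. Pln fell by 0.44 on the log2 scale by an adjusted p-value under 0.05. Actn2 had a log2 fold change of 0.17 with no overlap of the groups but did not pass (edgeR's adjusted p = 0.221). The part of myocyte RNA in the results below was not tested. In bulk RNA a change in the number of cells that express a gene and a change in the RNA per cell cannot be told apart.

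The 5′ regulatory sequence of 4 members, Ifit3, Rsad2, Cmpk2 and Mx1, is given in the RefSeq promoter table of build GRCr8, and those of Mx2, Ifit1, Ifit2 and Rtp4 are not shown here. Each window holds 250 bases before and 50 after the start used by that table. They are printed because the genes moved together in these libraries, and capitals mark every match to the ISRE core GAAANNGAAA or to the shorter IRF core AANNGAAA, read on either strand. Every ISRE core contains an IRF core.

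Ifit3 promoter, chr1:241527076-241527375, plus strand: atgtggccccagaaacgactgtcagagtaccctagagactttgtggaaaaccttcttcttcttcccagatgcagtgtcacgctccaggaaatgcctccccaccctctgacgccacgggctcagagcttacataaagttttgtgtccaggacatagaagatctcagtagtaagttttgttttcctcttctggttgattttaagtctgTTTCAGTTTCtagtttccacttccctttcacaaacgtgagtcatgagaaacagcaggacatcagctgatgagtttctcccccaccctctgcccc
Rsad2 promoter, chr6:48788071-48788370, minus strand: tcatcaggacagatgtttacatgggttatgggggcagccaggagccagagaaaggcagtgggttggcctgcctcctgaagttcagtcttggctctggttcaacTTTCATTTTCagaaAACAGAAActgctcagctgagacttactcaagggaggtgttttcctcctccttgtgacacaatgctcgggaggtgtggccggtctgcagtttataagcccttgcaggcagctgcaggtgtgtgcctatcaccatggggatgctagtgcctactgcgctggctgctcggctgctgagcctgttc
Cmpk2 promoter, chr6:48802600-48802899, plus strand: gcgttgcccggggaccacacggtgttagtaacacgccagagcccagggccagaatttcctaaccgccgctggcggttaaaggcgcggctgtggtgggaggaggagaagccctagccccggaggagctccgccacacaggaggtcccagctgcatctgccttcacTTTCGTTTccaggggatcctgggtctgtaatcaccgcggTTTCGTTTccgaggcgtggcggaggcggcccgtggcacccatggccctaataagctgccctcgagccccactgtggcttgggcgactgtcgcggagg
Mx1 promoter, chr11:50294557-50294856, minus strand: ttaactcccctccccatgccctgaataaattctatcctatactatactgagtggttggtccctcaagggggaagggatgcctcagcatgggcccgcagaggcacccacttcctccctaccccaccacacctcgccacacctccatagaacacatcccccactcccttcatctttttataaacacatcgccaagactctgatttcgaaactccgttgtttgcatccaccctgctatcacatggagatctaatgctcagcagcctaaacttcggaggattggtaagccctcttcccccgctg

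The Ifit3 window held 1 ISRE core, TTTCAGTTTC (the motif read on the strand opposite the gene), at positions -44 to -35 from the start. The Rsad2 window held 1 ISRE core, TTTCATTTTC, at -147 to -138, and a second IRF core, AACAGAAA, at -133 to -126. The Cmpk2 window held no ISRE core and 2 copies of the IRF core TTTCGTTT, at -86 to -79 and at -47 to -40. No match to either core was found in the Mx1 window, which says only that these letters are not within this window. Among 33469 promoters of the same length, 3.92% held at least 1 ISRE core and 26.4% at least 1 IRF core. A match is a description of the letters and not evidence of binding.

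The comparison of si-GPD1L with si-NC asks how these genes changed when GPD1L was targeted in fibroblasts. Each of the 8 genes was higher in all 3 si-GPD1L libraries than in any si-NC library, and each was past both thresholds used, which were an absolute log2 fold change over 1 and a p-value under 0.05 after adjustment. Over the 14852 genes tested, 1.62% were past both thresholds, 1.48% were past both and higher in si-GPD1L, 6.36% had an adjusted p-value under 0.05, and 15.1% were higher without overlap of the groups. The 8 log2 fold changes ran from 1.43 to 9.42 with a median of 7.07, where the median of all genes tested was -0.0049. With Rtp4, which had at most 3 counts in any si-NC library, put at a floor of 3 counts, the median was 7.003. Only 2 of the 8, Ifit2 and Cmpk2, had enough counts to pass the low-count filter on the si-NC libraries alone. The other 6 entered the test only through their si-GPD1L counts, a selection that favours higher values there, which is why the count of 8 is a description. Normalized counts below are counts scaled to the mean library size by the trimmed mean of M-values (TMM).

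**Figure D1:**
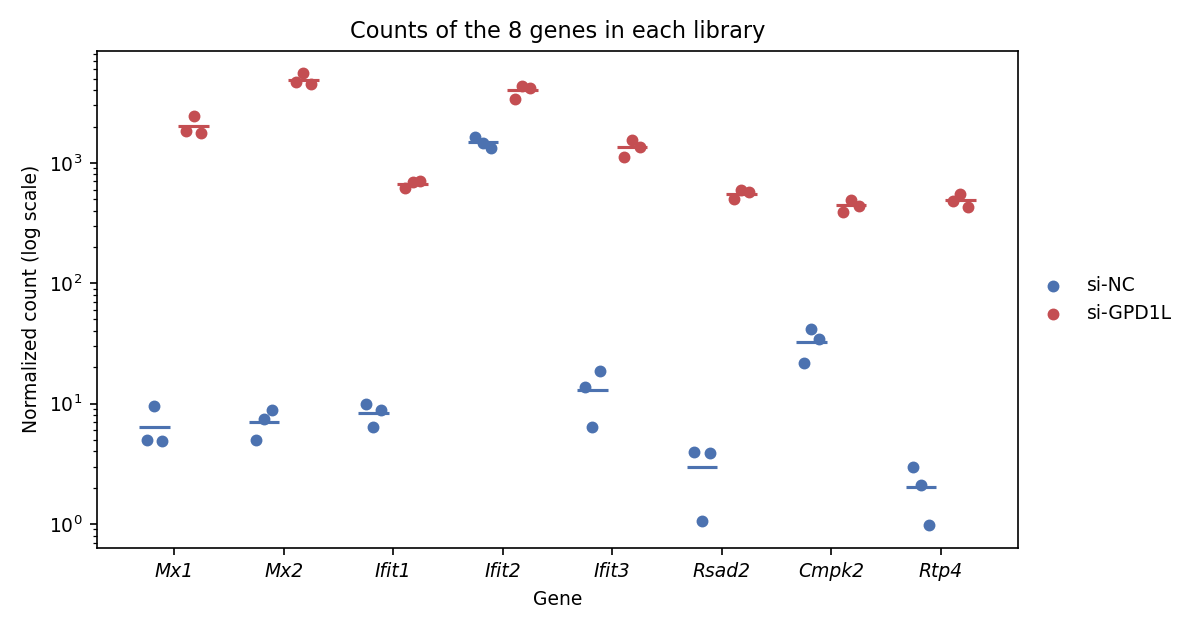
Normalized counts (log axis) of the 8 genes in each of the 6 libraries. Points are libraries and horizontal lines group means. In si-NC all genes except Ifit2 lie between 0.976 and 41.3, and in si-GPD1L the lowest point is 394 (Cmpk2), with no overlap of the groups for any gene.

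Mx1 and Mx2, the dynamin-like GTPases, were nearly silent in si-NC and among the genes that rose most. Mx2 had raw counts of 5, 7 and 9 in si-NC and of 4303, 6091 and 4488 in si-GPD1L. Its fold change of 684 (95% confidence interval 535 to 875) was the largest of all genes tested (adjusted p = 3.54e-12, edgeR's quasi-likelihood test). Mx1 had raw counts of 5, 9 and 5 in si-NC and of 1687, 2705 and 1764 in si-GPD1L. It ranked 4 of 14852 by fold change, with 311-fold more (95% confidence interval 223 to 434, adjusted p = 1.14e-10). Both folds rest on few si-NC counts. Their ratios of summed counts had wider exact 95% counting intervals, 458 to 1131 for Mx2 and 205 to 532 for Mx1. Mx1 and Mx2 are near relatives on chromosome 11, so reads could have been split between them. Mx1 lies from 37891150 to 37916775 on the minus strand and Mx2 from 38035306 to 38066185 on the plus strand, in the coordinates of the deposited table, for which the submitters' notes name rn6.

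The 3 Ifit genes lie on the plus strand of one cluster on chromosome 1, between 252894663 and 252946170, yet they behaved unequally. Ifit1 had raw counts of 10, 6 and 9 in si-NC and of 564, 759 and 703 in si-GPD1L. Its log2 fold change was 6.30 ± 0.16 (standard error), with an adjusted p of 9.45e-11. Ifit3, which binds and stabilizes IFIT1 on RNA, had raw counts of 14, 6 and 19 in si-NC and of 1022, 1712 and 1365 in si-GPD1L. On the log2 scale it rose by 6.67 ± 0.21 (standard error), with an adjusted p of 2.82e-10. Both folds rest on few si-NC counts. The ratios of summed counts had exact 95% counting intervals of 54.0 to 124 for Ifit1 and 75.8 to 146 for Ifit3. With a prior count of 2 their log2 values were 6.01 and 6.48. Ifit2, an RNA-binding relative, was the exception in si-NC, where its raw counts were already 1666, 1392 and 1352. They were 3119, 4820 and 4189 in si-GPD1L, from 1480.0 ± 164 normalized counts to 3987 ± 518 (SD, n = 3 in each group). The log2 rise of Ifit2, 1.43 ± 0.11 (standard error; edgeR's quasi-likelihood test, adjusted p = 1.62e-06), was the smallest of the 8 and ranked 171 of all genes tested. Ifit2 was 2.70-fold higher (95% confidence interval 2.30 to 3.16) while its neighbours Ifit1 and Ifit3 were 78.7-fold and 102-fold higher. The span of Lipa, a gene on the opposite strand, covers Ifit2, and whether the counting used strand is not given. The part of Lipa reads in the Ifit2 counts, and so in its si-NC level, was not tested.

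Rsad2 and Cmpk2, the viperin gene and its partner kinase, lie 14159 bases apart on opposite strands of chromosome 6. Rsad2 (45655947 to 45669083, minus strand) had raw counts of 4, 1 and 4 in si-NC and of 456, 656 and 568 in si-GPD1L. The log2 rise was 7.46 ± 0.22 (standard error), with an adjusted p of 1.83e-10. Cmpk2 (45683242 to 45694824, plus strand) had raw counts of 22, 39 and 35 in si-NC and of 361, 545 and 438 in si-GPD1L. Its rise of 3.77 ± 0.18 on the log2 scale (standard error; edgeR's quasi-likelihood test, adjusted p = 1.49e-08) was a 13.7-fold increase, against 176-fold for Rsad2. The Rsad2 value rests on few si-NC counts: its ratio of summed counts had an exact 95% counting interval of 96.9 to 404, and its log2 value was 6.79 with a prior count of 2. Both pairs of ranges were far apart, and Cmpk2 began from the higher count.

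Rtp4 lies on chromosome 11 too, far from the Mx genes (80638945 to 80650802, minus strand), and had raw counts of 3, 2 and 1 in si-NC and of 442, 605 and 431 in si-GPD1L. The ratio of its summed counts, 1478 to 6 and scaled for library size, was 243 with an exact 95% counting interval of 111 to 664, which covers counting error only. Set against 3 counts in each si-NC library it was 161-fold higher, and its fitted log2 value of 7.83 ± 0.24 (standard error; edgeR's quasi-likelihood test, adjusted p = 2.62e-10) depends on the small prior count of the fit (6.93 with a prior count of 2). The si-NC level of Rtp4 was thus at or under that floor in every library.

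**Figure D2:**
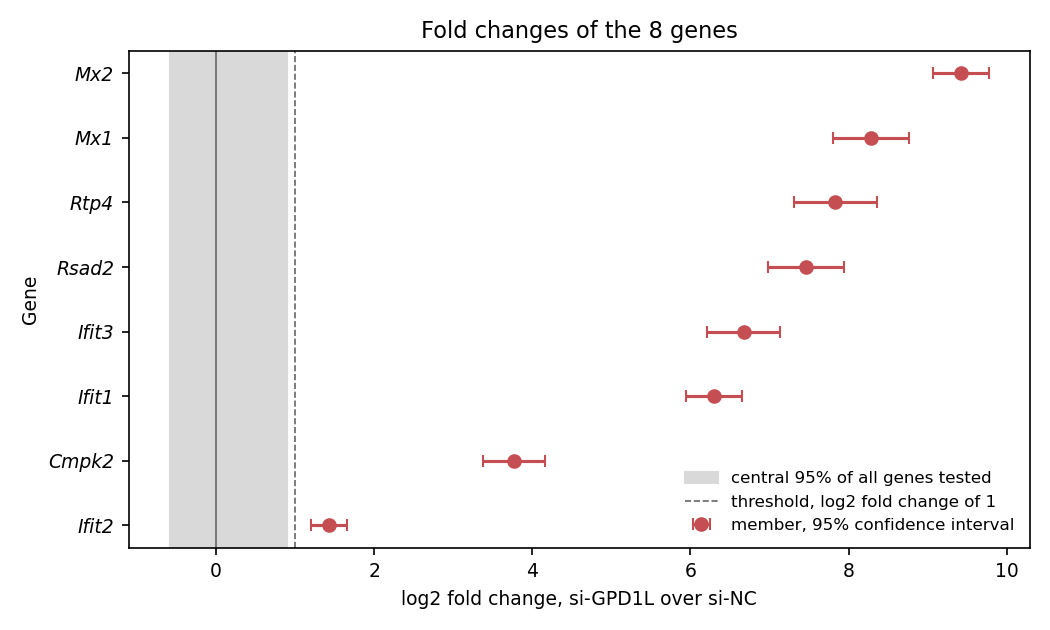
Log2 fold changes of the 8 genes, si-GPD1L over si-NC (horizontal axis), with 95% confidence intervals from edgeR's quasi-likelihood fit. The grey band holds the central 95% of all genes tested (-0.59 to 0.89). All 8 intervals lie above the dashed line at 1, with Ifit2 at 1.43 nearest to it and Mx2 at 9.42 farthest.

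Scaled for gene length, the levels gave another order than the fold changes. These levels are the deposited TPM values, transcripts per 1e6 in a library. In si-NC, Ifit2 stood at 55.4 ± 3.69 TPM (SD, n = 3), above 81.2% of the genes tested, while the other 7 had group means from 0.103 TPM (Rtp4) to 1.10 TPM (Cmpk2). Cmpk2 and Ifit3 overlapped in their si-NC ranges, as did Ifit3 and Ifit1, Mx1 and Mx2, Mx2 and Rsad2, and Rsad2 and Rtp4. In si-GPD1L the order was Ifit2 (159 ± 21.5), Mx2 (99.0 ± 11.7), Ifit3 (89.4 ± 15.2), Mx1 (73.0 ± 14.1), Ifit1 (43.9 ± 3.32), Rtp4 (26.7 ± 3.35), Rsad2 (20.8 ± 2.03) and Cmpk2 (15.8 ± 1.91 TPM, SD, n = 3). The ranges of Mx2 and Ifit3 overlapped there, and so did those of Ifit3 and Mx1, while every other neighbour in this order was separate in all libraries. Ifit2, with the smallest fold change, had the highest level in si-NC. Its first place in si-GPD1L depends on the length used for Mx2. The deposited level divides by 6715 bases, while the shortest Mx2 transcript, of 2566 bases, held 93.9% of the gene's counts. With the length and counts of each gene's shortest transcript, a setting chosen after seeing the data, Mx2 stood at 243 ± 29.1 TPM (SD, n = 3) and above Ifit2 in all 3 si-GPD1L libraries, Rtp4 at 40.8 ± 4.93 TPM and Cmpk2 at 19.1 ± 2.34 TPM. By group means, Cmpk2 passed under both settings from second place in si-NC to the last in si-GPD1L. With the deposited lengths it was above Ifit3 in only 1 of the 3 si-NC libraries.

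**Figure D3:**
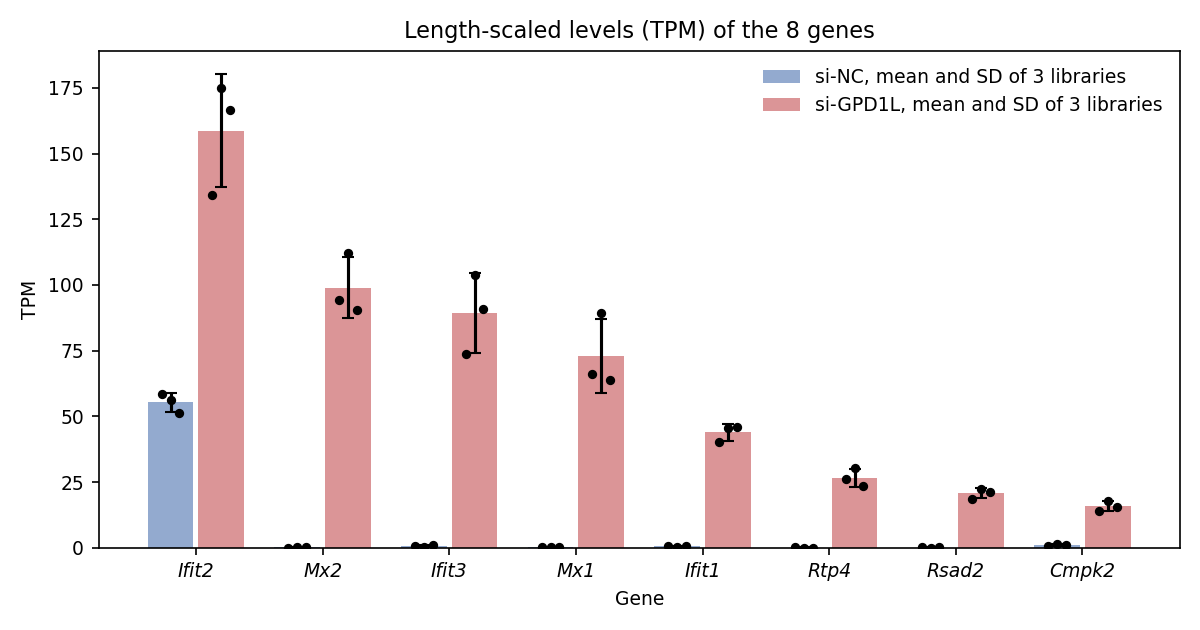
Levels of the 8 genes in TPM (linear axis from 0), ordered by their si-GPD1L mean. Bars are means, error bars are SDs of 3 libraries and points are libraries. Only Ifit2 has a visible si-NC bar, at 55.4 TPM, and in si-GPD1L the means fall from 159 TPM (Ifit2) to 15.8 TPM (Cmpk2) with the deposited gene lengths.

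The share of the library taken by the 8 genes together was between 0.00759% and 0.00938% of all gene counts in si-NC, against 0.0708% to 0.0888% in si-GPD1L. Ifit2 made up 94.3% to 96.4% of these counts in si-NC but 26.1% to 30.0% in si-GPD1L, where Mx1 and Mx2 made up 44.8% to 50.1%. Within si-GPD1L, 7 of the 8 genes had their highest normalized count in replicate 2, and Ifit1 had it in replicate 3. The coefficient of variation among the si-GPD1L libraries was 7.03% for Ifit1 and up to 18.9% for Mx1. In si-NC it was 11.1% for Ifit2 and between 21.7% and 55.8% for the other 7, whose counts there were small. In si-GPD1L replicate 3 the Gpd1l count was level with the si-NC mean (log2 ratio -0.00034), and the median log2 ratio of the 8 genes was 7.01, against 6.77 and 7.14 in replicates 1 and 2.

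Ratios between related genes within a library, from which any scaling factor cancels, were compared for 4 pairs by an exact two-sided permutation test, for which 0.10 is the smallest p that 3 against 3 libraries allow. The log2 ratio of Mx2 to Mx1 counts was 0.00, -0.34 and 0.79 in si-NC and 1.35, 1.17 and 1.35 in si-GPD1L. The groups did not overlap, and the mean ratio was 1.14 higher in si-GPD1L (exact p = 0.10, adjusted p = 0.133 over the 4 pairs). The Rsad2 to Cmpk2 ratio had a mean of -3.34 (SD 1.24) in the 3 si-NC libraries and 0.33 (SD 0.054) in the others, a difference of 3.67 without overlap (exact p = 0.10, adjusted p = 0.133), which was 2.98 without si-NC replicate 2. The Ifit2 to Ifit3 ratio was 1.57 ± 0.070 in si-GPD1L against 6.90 ± 0.81 (SD, n = 3), a difference of -5.33 (exact p = 0.10, adjusted p = 0.133), again without overlap. For Ifit1 to Ifit3 the groups overlapped, and the difference of -0.49 was within the spread of the si-NC libraries (exact p = 0.30, adjusted p = 0.30). No ratio could pass the threshold in this design. The si-NC ratios also rest on few raw counts a library, 5 to 9 for Mx1 and Mx2, 1 to 4 for Rsad2 and 6 to 19 for Ifit3. Their counting error is therefore large.

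**Figure D4:**
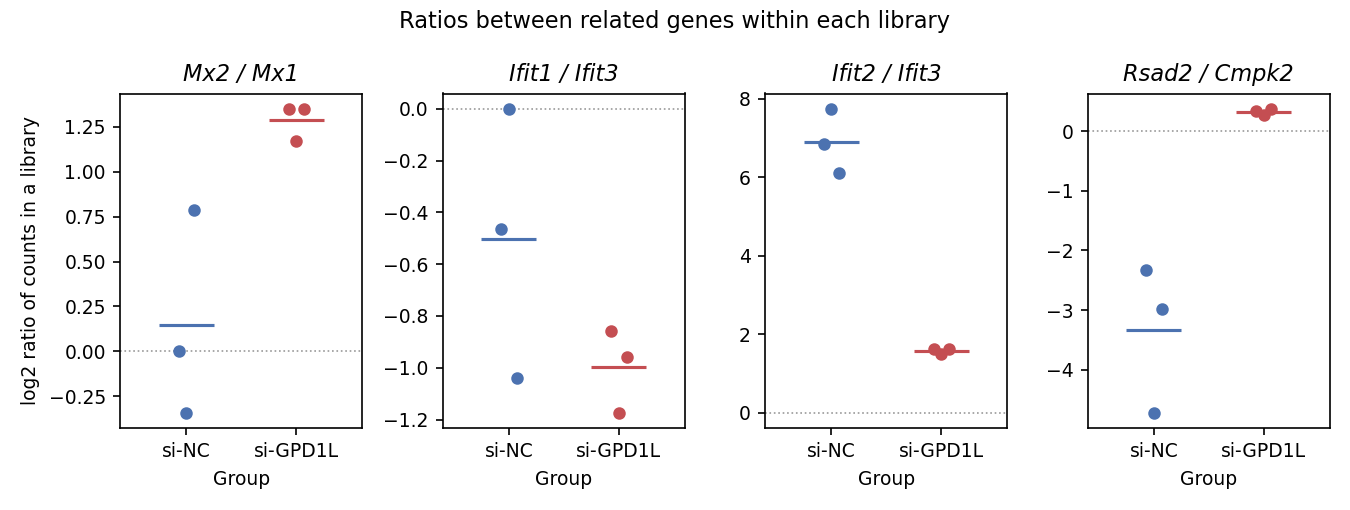
Log2 ratios of raw counts (0.5 added to each) between related genes within each library. Points are libraries and lines are group means, and each panel has its own vertical axis. The si-GPD1L libraries have an SD of at most 0.16 in every panel, and only Ifit1 to Ifit3 shows overlap of the groups. The si-NC ratios rest on few counts.

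All 23 transcripts of the 8 genes were tested and were past both thresholds. Over the 37822 transcripts tested, 1.18% were past both and 1.12% were past both and higher. Apart from those of Ifit2 and Cmpk2, the member transcripts had few si-NC counts and entered the test through si-GPD1L. Their count is therefore a description too. Mx1 has 11 listed transcripts, Mx2 and Cmpk2 have 3 each, Rtp4 has 2, and Ifit1, Ifit2, Ifit3 and Rsad2 have 1. The 11 Mx1 transcripts each held 97.1% to 99.8% of the Mx1 gene count in si-GPD1L, so the same reads were counted for several of them and they are not independent. Their log2 fold changes ran from 8.33 to 8.49. The shortest Mx2 transcript (2566 bases) held 93.9% of the Mx2 gene count in si-GPD1L and the longest (6715 bases) held 100%. These counts do not separate isoforms.

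Genes around the members were read from the same fit. Within 250 kb of a member lie 32 other genes, of which 10 had enough counts to be tested and 2 were past both thresholds, both in the Mx locus and both higher. Over all genes tested, 1.48% were past both and higher. Tmprss2, 1 of the 2, entered the test only through its si-GPD1L counts, so this count is a description. Bace2, which encodes a membrane protease and ends 10526 bases from Mx1, had 338 ± 27.3 normalized counts in si-NC and 754 ± 57.2 in si-GPD1L (SD, n = 3), a log2 difference of 1.16 ± 0.095 (standard error; edgeR's quasi-likelihood test, adjusted p = 5.09e-06). Tmprss2, which encodes a serine protease, lies on the strand opposite Mx2 and overlaps its end by 2272 bases. Its raw counts were 5, 0 and 0 in si-NC and 77, 133 and 97 in si-GPD1L (fitted log2 fold change 5.81, standard error 0.51, adjusted p = 9.50e-06, edgeR's quasi-likelihood test), and the fitted value was 9.66 without si-NC replicate 1, where the remaining si-NC libraries are at 0 and no fold can be read. With a prior count of 2 it was 4.81. Whether the counting used strand is not given in the sources used here, so reads of Tmprss2 and Mx2 in the overlap cannot be told apart. In the Ifit locus Ifit1bl, an Ifit1-like gene on the opposite strand whose span covers Ifit1, had 77.9 ± 7.97 and 84.3 ± 4.38 normalized counts (log2 fold change 0.11, adjusted p = 0.737). Lipa, the lysosomal acid lipase gene, spans Ifit1, Ifit2 and Ifit3 on the opposite strand and had a log2 fold change of -0.14 (adjusted p = 0.281). As for Tmprss2 and Mx2, reads in these overlaps cannot be told apart without the strand setting. Ifit1bl and Lipa were named for their overlap, after their values were seen. The lncRNA LOC108351212, which overlaps Rsad2, had too few counts to be tested.

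**Figure D5:**
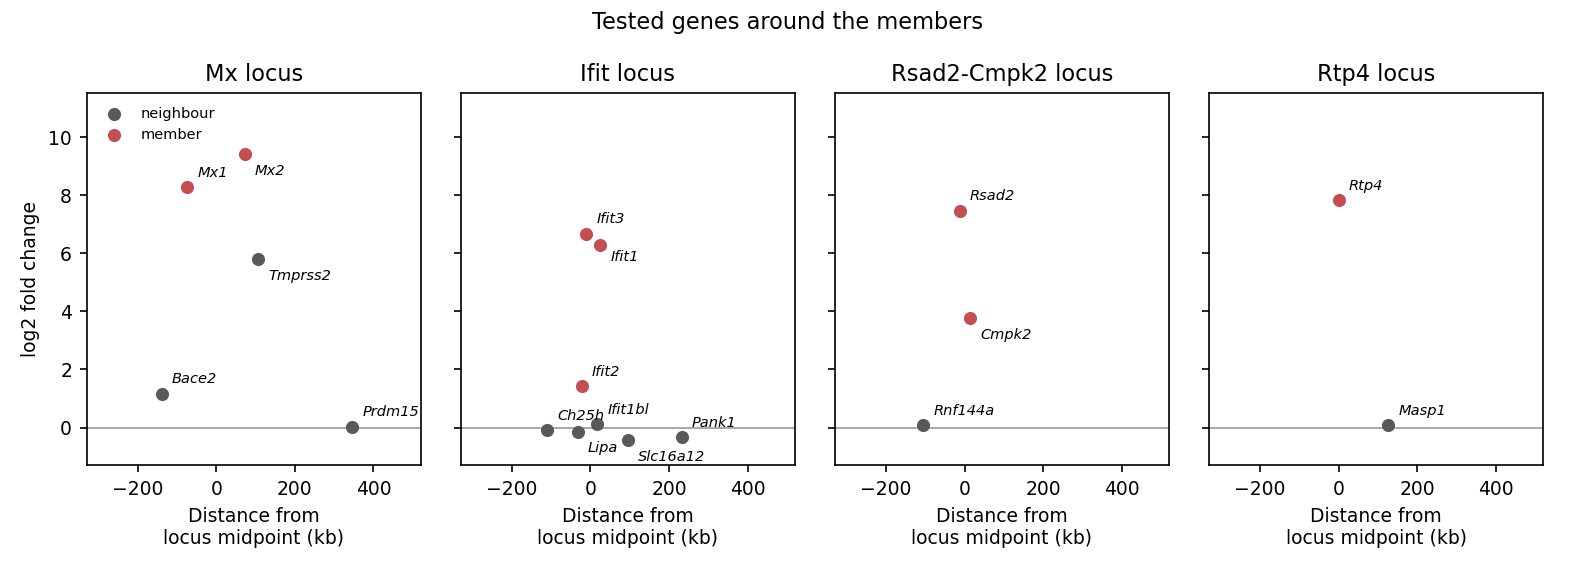
Log2 fold changes of the members (red) and of the other tested genes within 250 kb of them (grey) against the distance from the midpoint of each locus in kb. In the Ifit, Rsad2-Cmpk2 and Rtp4 loci the grey points lie between -0.44 and 0.11, while Tmprss2 (5.81) and Bace2 (1.16) stand above 1 in the Mx locus.

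Of the 11 listed genes that carry the interferon signal, 5 were past both thresholds and higher in si-GPD1L, and none was lower. Over all genes tested, 1.48% were past both and higher. Stat2 and Irf9, parts of the complex that binds the ISRE, rose by 2.18 and 1.81 on the log2 scale, with adjusted p-values of 8.77e-10 and 5.17e-09 by edgeR's quasi-likelihood test. Irf7, the transcription factor that drives interferon alpha genes, had means of 69.6 and 4082 normalized counts and rose by 5.87 ± 0.16 (standard error) on the log2 scale. The feedback inhibitors Usp18 and Socs1 rose by 8.37 and 1.85 on the log2 scale. Usp18 had raw counts of 1, 2 and 7 in si-NC and entered the test only through its si-GPD1L counts, so its pass is a description. Its log2 value was 9.44 without si-NC replicate 3 and 7.76 with a prior count of 2. Irf1, named after its values were seen, had an adjusted p-value of 0.00201 (edgeR's quasi-likelihood test) with a log2 fold change of 0.60, under the fold threshold. The receptor genes Ifnar1 and Ifnar2, also named afterwards, had fitted log2 differences of 0.013 and -0.011 (edgeR's adjusted p = 0.949 and 0.969), and Jak1, the kinase with the most counts of the list, had -0.064 (adjusted p = 0.669). The transcripts of the interferons themselves were scarce: of 12 interferon genes, 10 including Ifnb1 and Ifng had 0 counts in all 6 libraries, which allows up to 3 counts in each. Ifna5 had 1 count in 1 library, and Ifne had raw counts of 18, 3 and 9 against 5, 16 and 6, too few to be tested.

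No tested relative of the members was past both thresholds. Of 16 listed relatives 13 were in the table and 10 were tested, among them the dynamins, the mitochondrial GTPases Opa1, Mfn1 and Mfn2, Rsad1, Cmpk1 and Ifit1bl. Past both thresholds there were 0 by edgeR's quasi-likelihood test, 0 by DESeq2 and 0 by edgeR's exact test, and 2 had an unadjusted p-value under 0.05. Their log2 fold changes ran from -0.34 (Cmpk1) to 0.29 (Dnm1), and Dnm1l, a dynamin-related gene with the most counts of them, had -0.11 (adjusted p = 0.539). Rtp3, a relative of Rtp4 with too few counts to be tested, had 0 in every si-NC library and 5, 16 and 3 in si-GPD1L. Of 14 genes around the chemistry of viperin, which covers CTP synthases, nucleotide kinases, farnesyl diphosphate synthase and the cytosolic iron-sulfur machinery, 11 were tested. Again 0 were past both thresholds by each of these 3 tests, with 1 unadjusted p-value under 0.05. Nme2, a nucleoside diphosphate kinase gene with the most counts of these, had a log2 fold change of -0.17 (adjusted p = 0.371).

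By a measure of likeness, the root mean square difference from the median log2 ratios of the 8 genes in the 3 si-GPD1L libraries, the most similar of 11875 other genes were LOC100911190 (0.26), Oas2 (0.26), LOC100912658 (0.35), Oasl (0.38) and Oas1a (0.40 on the log2 scale). Oas2, Oasl and Oas1a belong to the family of oligoadenylate synthetases, enzymes and enzyme-like proteins that respond to double-stranded RNA. Oas2 had raw counts of 1, 2 and 0 in si-NC and of 126, 294 and 223 in si-GPD1L. In si-NC Oasl had raw counts of 7, 2 and 4, and Oas1a of 1, 6 and 6. The fitted log2 fold changes of Oasl and Oas1a were 6.71 and 7.49, or 6.21 and 6.99 with a prior count of 2. All are compared with the same si-NC libraries as the 8 genes.

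Markers of other cell types were counted in the same libraries. Of 14 macrophage markers all were tested and 0 were past both thresholds by edgeR's quasi-likelihood test, DESeq2 or edgeR's exact test (1 unadjusted p-value under 0.05). Without overlap of the groups, Cd163 was higher and Tyrobp lower (log2 fold changes of 0.93 and -0.34, edgeR's adjusted p = 0.0908 and 0.279). The summed normalized counts of the 14 markers ran from 3212 to 3467 in the si-NC libraries and overlapped with those of si-GPD1L, from 2723 to 3934. Lyz2 was the largest part of that sum, with means of 1561 and 1535. Of 10 lymphocyte markers 5, Cd3e, Cd3d, Cd79b, Ms4a1 and Nkg7, had 0 counts in every library, and their sum ran from 79.1 to 99.5 normalized counts in the si-NC libraries against 64.3 to 88.8. Some endothelial markers were higher too. Of 10 markers 9 were tested, and Plvap and Cdh5 were past both thresholds (log2 fold changes of 1.44 and 1.07). Pecam1 and Tie1 had an adjusted p-value under 0.05 only. Kdr, Tek, Vwf, Egfl7 and Cldn5 passed neither way, with log2 fold changes from 0.14 to 0.87. The median of the tested markers was 0.56. The sum was higher in every si-GPD1L library (1185 to 1373) than in any si-NC library (855 to 989). The endothelial markers were named after their values were seen, and the part of endothelial cells in the rise of the members was not tested. Of 10 smooth muscle and pericyte markers 0 were past both thresholds by these 3 tests (4 unadjusted p-values under 0.05), and their sum was lower in every si-GPD1L library (80875 to 85902) than in any si-NC library (86038 to 96590). Acta2 and Tagln made up most of that sum, and the list went both ways: by an adjusted p-value under 0.05, Des was lower and Cspg4 higher (log2 fold changes of -0.35 and 0.80). The part of these cells was likewise not tested. No cardiomyocyte or fibroblast marker was past both thresholds by these 3 tests, with 5 unadjusted p-values under 0.05 in each list.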

How the data were processed

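The authors deposited read counts per gene and per transcript, whole numbers without normalization, and TPM values that equal counts over gene length scaled to a common sum in the gene table. The submitters' processing notes name bcl2fastq, HISAT2 2.1.0, HTSeq 0.12.4 and rn6. The annotation and strand setting are not given in the sources used here. The authors' own fold changes, p-values, q-values and GO and KEGG enrichment terms were not used. Columns were matched to libraries by name.

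In R 4.3.3, edgeR 4.0.16 was run with the filter filterByExpr, TMM scaling, glmQLFit and glmQLFTest, with Benjamini-Hochberg adjustment over all genes, or all transcripts, tested. The standard error is the log2 fold change divided by the square root of F. DESeq2 1.42.0 served as an alternative. The test was first tested on simulated counts. Figures were drawn with matplotlib 3.10.9. Library totals of 16892255 to 20149732 set the counting error, and 0 counts allow up to 3.

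The members, gene lists and tests were chosen with earlier results of these data known. Genes named are the 8 members, Gpd1l, of each list the genes past both thresholds and the one with the most counts, and the 5 genes most like the members, among those averaging 50 or more normalized counts. Every other gene named was chosen after its values were seen. One gene of the interferon signalling list is not reported here and was left out of its counts. Whether replicate numbers pair the libraries is not known, and the main fits used no pairing.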

Additional observations from a re-analysis of the deposited data

How the results depend on the processing

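Each log2 fold change of the 8 members kept its direction and stayed past both thresholds as defined above under every alternative in which it was tested, which were the size factors of DESeq2, upper-quartile normalization, DESeq2's Wald test, edgeR's exact test, other filters, a prior count of 2, the transcript counts, the replicate block and each library left out. With 1 library left out the values ran from 8.11 to 8.65 for Mx1, 9.22 to 9.61 for Mx2, 6.14 to 6.43 for Ifit1, 1.35 to 1.53 for Ifit2, 6.36 to 7.02 for Ifit3, 7.09 to 7.70 for Rsad2, 3.55 to 3.98 for Cmpk2 and 7.51 to 8.21 for Rtp4. All 8 members were past both thresholds in each of these fits, except that requiring 10 or more counts in each library left only Ifit2 and Cmpk2 to test, and both of these 2 passed. For the members that entered the test through si-GPD1L, passing in these fits remains a description. The 240 genes past both thresholds became 945 (599 higher and 346 lower) by adjusted p-value alone and 107 (105 higher and 2 lower) at a log2 fold change over 2, where 7 of the 8 members passed and Ifit2 did not. The 20 lower genes became 38 by the exact test, 40 without a filter and 10 with the stricter filter, and 6 to 28 with 1 library left out (6 without si-GPD1L replicate 1, 8 without si-GPD1L replicate 2). With 1 library left out, the 4 ratios kept their sign, with differences from 0.90 to 1.46 for Mx2 to Mx1, -0.76 to -0.24 for Ifit1 to Ifit3, -5.72 to -4.91 for Ifit2 to Ifit3 and 2.98 to 4.18 for Rsad2 to Cmpk2, and Dnm1l ran from -0.20 to 0.0075. With the replicate number as a block all 8 members and all 23 transcripts stayed past both thresholds. Same-numbered libraries did not deviate together (correlations of -0.016, -0.0058 and 0.044), which cannot exclude pairing with so few libraries. The scalings moved the median of all genes by at most 0.025. Depth limits the si-NC levels of Mx1, Mx2, Rsad2 and Rtp4, which rest on fewer than 10 counts a library, and the exact sizes of their folds with them. The same limit holds for Ifit1 and Ifit3, which had at most 10 and 19 counts in a si-NC library.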
